A study of Homo sapiens with 6 samples.

Results

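A set of 10 tubulin genes was followed in HCT116, an established human colon carcinoma cell line, before and after exposure to curcumin, the yellow polyphenol of turmeric. The genes were taken by name from the deposited gene table and make up 10 of its 35106 rows: the alpha-tubulins TUBA1A, TUBA1B, TUBA1C and TUBA4A, the beta-tubulins TUBB, TUBB2A, TUBB3, TUBB4B and TUBB6, and the gamma-tubulin TUBG1. The rule matches rows by gene name and uses no measured value, but the list was drawn up with earlier results of these data known. It leaves out other tubulin genes of the table, such as TUBB4A, TUBG2, TUBD1 and TUBE1. The comparison was between 2 groups of 3 libraries, untreated HCT116 cells (treatment given as none) and HCT116 cells kept with curcumin for 24 h at a dose that the labels write as 30 with a unit reading as micrometres, taken here as 30 µM. Both groups are of wild-type genotype per the labels and grew in DMEM with serum, and the labels do not say whether the untreated cells received a vehicle. Separate cultures are not stated for the 3 libraries of a group, so p-values rest on the spread among these libraries alone, and that spread may be technical.

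Microtubules are hollow polymers of alpha-beta tubulin dimers, and they build the mitotic spindle and the tracks for intracellular transport. Gamma-tubulin does not enter the wall of the polymer but sits in ring complexes that start new microtubules. Vertebrates carry several alpha and beta isotypes, which differ mainly near the end of the protein and in the tissues that use them: TUBB and TUBB4B are widely expressed, TUBB2A and TUBB3 are abundant in neurons, and TUBB3 is also made by many carcinomas. Cells adjust tubulin synthesis to the pool of free dimers. When free tubulin rises, the factor TTC5 recognises the start of a nascent alpha- or beta-tubulin chain on the ribosome and directs the decay of its messenger.

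That recognition depends on the first 4 codons, so the start of each coding sequence is shown, 5′ to 3′, with those codons in capitals and the next 12 bases in lower case. The sequences were read from GENCODE release 29 transcripts, 1 principal transcript per gene. Other annotated coding transcripts can begin differently. The same first 12 bases were found in 1 of 7 coding transcripts of TUBA4A and in all of those of TUBB2A, TUBB4B and TUBG1. TUBG1, a gamma-tubulin, is listed for comparison only, since the recognition concerns alpha- and beta-tubulin chains.
TUBA1A: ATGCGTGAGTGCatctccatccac
TUBA1B: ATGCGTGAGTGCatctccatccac
TUBA1C: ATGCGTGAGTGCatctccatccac
TUBA4A: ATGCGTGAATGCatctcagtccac
TUBB: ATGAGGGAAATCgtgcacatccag
TUBB2A: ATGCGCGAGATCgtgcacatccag
TUBB3: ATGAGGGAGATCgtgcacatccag
TUBB4B: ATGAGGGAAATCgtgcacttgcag
TUBB6: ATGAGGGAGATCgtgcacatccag
TUBG1: ATGCCGAGGGAAatcatcacccta
TUBA1A, TUBA1B and TUBA1C were identical over these 24 bases, and TUBB3 and TUBB6 matched each other. Over the whole coding sequence, TUBA1A and TUBA1B shared 97.2% of bases, TUBA1B and TUBA1C shared 97.3%, and TUBA1A and TUBA1C shared 96.3%. The beta-tubulin members were 81.3% to 88.7% identical to one another. TUBB2A was 98.1% identical to its neighbour TUBB2B. How the authors shared reads between such copies is not given in the sources used here, so the split between the TUBA1 genes, and between TUBB2A and TUBB2B, is uncertain.

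Libraries held 16663562 to 20311769 counts, and each of the 10 tubulin genes had at least 366 counts in each library. The samples differed in make-up as well as in group. The 100 most abundant genes took 18.9% to 22.7% of counts in untreated and 39.9% to 43.3% in treated libraries, and ribosomal protein genes took 4.89% to 6.72% and 15.7% to 17.2%. Levels are therefore given as TMM-normalised CPM, a scale that sets the bulk of genes equal between libraries, and each rise or fall is relative to other transcripts. In bulk RNA, a change in the number of cells of one kind and a change in RNA per cell cannot be told apart. Of 7 colon epithelial markers 6 were present, and VIL1 stayed under 1 CPM in each library. These markers summed to 3820 to 4510 CPM in untreated and 7210 to 8460 CPM in treated cells, with KRT8 at 1710 to 2080 and then 4330 to 4910 CPM, but CLDN3 was the other way round, at 30.4 to 58.8 and then 8.74 to 10.9 CPM. The summed leukocyte markers came to 0.411 to 0.606 CPM in untreated and 12.4 to 31.2 CPM in treated cells, most of it CD14, with CD3E at 0 throughout. Endothelial markers summed to 1.36 to 2.20 CPM in untreated and 8.29 to 28.0 CPM in treated cells. The treated sum was mostly PECAM1 (6.65 to 25.0 CPM), with CDH5 at or under 0.118 CPM in each library. Fibroblast markers summed to 26.0 to 31.1 and 15.5 to 38.7 CPM, nearly all COL1A1. Neuronal markers summed to 1.73 to 2.01 and 3.06 to 6.72 CPM, with NEFL at or under 0.0822 CPM. The part of these shifts in the tubulin results was not tested.

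Of the tubulin genes, TUBB2A rose 3.43-fold and TUBB3 1.42-fold after curcumin, and the other 8 did not pass the test. With edgeR's quasi-likelihood test at an adjusted p under 0.05, 2 of 10 were higher and 0 lower. Across all 13718 genes tested, 27.2% were higher, 28.9% lower and 56.1% called in either direction. The 2 of 10 higher tubulin genes are thus near the background share, and 2 of 10 called in either direction is below it. At an unadjusted p under 0.05 the counts were again 2 and 0, against 29.8% and 31.2% of all genes. DESeq2 and limma-voom also called 2 higher and 0 lower, against 29.6% and 28.5% of all genes for DESeq2 and 27.8% and 29.7% for limma-voom. With a fold of at least 2 as a further condition 1 was higher and 0 lower, against 16.4% and 17.4%. The median log2 fold change was 0.089 over the tubulin genes and −0.037 over all genes tested. Groups did not overlap for 3 of 10 tubulin genes, TUBB2A, TUBB3 and TUBA1A, against 64.0% of all genes.

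**Figure D1:**
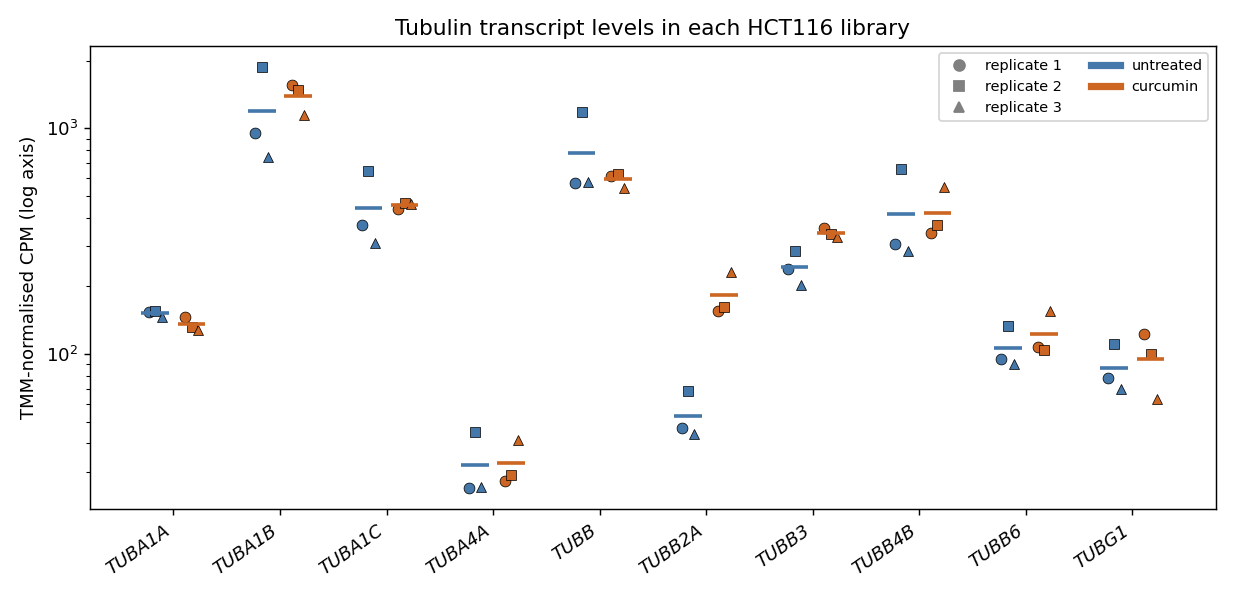
Level of each tubulin gene in each library, in TMM-normalised CPM on a log axis, with untreated libraries in blue, curcumin libraries in orange, replicates 1 to 3 as circles, squares and triangles, and group means as bars. TUBB2A is the gene whose groups stand farthest apart (43.96 to 68.4 against 154 to 229.9 CPM), and the blue squares of untreated replicate 2 lie above the other untreated points for each gene, narrowly so for TUBA1A.

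TUBB2A (ENSG00000137267, GRCh38 chromosome 6, 3153669 to 3157526, minus strand) encodes a beta-tubulin isotype that is prominent in neurons. Its level was 46.6, 68.4 and 43.96 CPM in the untreated libraries and 154, 161 and 229.9 CPM in the treated ones. All 3 treated libraries lay above all untreated ones, by more than the spread within either group. The means were 53.0 ± 13.4 and 182 ± 41.9 CPM (SD, n = 3), a log2 fold change of 1.78 ± 0.22 (SE, edgeR adjusted p = 0.00011). It was called higher in all 15 alternative analyses that set no minimum fold (adjusted p from 3.9e-14 to 0.0025) and also passed with a fold of at least 2, its smallest log2 fold change being 0.96 with library size alone. Its deposited counts were higher as well, 2031 to 2944 in treated against 1118 to 1664 in untreated libraries, although the treated libraries were shallower. TUBB2A was the sole tubulin of the 10 whose raw counts were higher in each treated library than in any untreated one.

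TUBB2B, which lies beside TUBB2A on chromosome 6, moved the same way from a far lower level. It measured 1.14, 1.40 and 0.393 CPM in untreated and 3.51, 5.23 and 6.01 CPM in treated cells (log2 fold change 2.33 ± 0.51, edgeR adjusted p = 0.0032). Its counts came to 0.894 to 2.44 per 100 counts of TUBB2A in untreated and 2.28 to 3.25 in treated libraries, which overlap. Reads of TUBB2A assigned to its copy cannot be told apart from reads of TUBB2B itself.

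TUBB3 (ENSG00000258947, chromosome 16, 89921392 to 89938761) encodes the class III beta-tubulin used as a neuronal marker. Its level was 238, 285 and 202 CPM in untreated and 362, 340.0 and 329 CPM in treated libraries. The groups were apart, but the gap between untreated replicate 2 and the lowest treated library was smaller than the range of the untreated group. The log2 fold change was 0.51 ± 0.16 (edgeR adjusted p = 0.018). Removing untreated replicate 1 or 3 ended the call (log2 fold changes 0.48 and 0.38, adjusted p = 0.065 and 0.070), as did removing curcumin replicate 1 or 2 (0.465 and 0.50, adjusted p = 0.063 in both cases). It also ended once the trend of each library over transcript length and GC content was removed (0.050, adjusted p = 0.80), with the 100 most abundant genes left out of the library size (0.15, adjusted p = 0.44), or with library size alone, where it turned to −0.30 (adjusted p = 0.14). AC092143.1, a protein-coding model that overlaps TUBB3 on the same strand, stood at 4.50 ± 2.02 and 3.53 ± 3.34 CPM.

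TUBB (ENSG00000196230, chromosome 6, 30720201 to 30725426), the main beta-tubulin of proliferating cells, had a fold change of the other sign that did not pass. It measured 574, 1178 and 579 CPM in untreated and 614, 631 and 543 CPM in treated libraries. The treated values bracketed untreated replicates 1 and 3, and the lower treated mean (596 ± 46.7 against 777 ± 347 CPM) was not seen without untreated replicate 2. The log2 fold change was −0.38 ± 0.26 (edgeR adjusted p = 0.23) and 0.033 without that library (adjusted p = 0.84), whereas with library size alone (−1.19, adjusted p = 0.0018) or without the 100 most abundant genes in it (−0.74, adjusted p = 0.026) TUBB was called lower.

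TUBB4B, a widely expressed isotype also found in cilia, gave 307, 663 and 286 CPM in untreated and 344, 371 and 547 CPM in treated libraries. TUBB6, a more divergent beta-tubulin, gave 94.4, 133 and 90.4 CPM and then 108, 104 and 154 CPM. Untreated replicate 2 and curcumin replicate 3 were the high libraries for both genes, and the groups overlapped. Their log2 fold changes were 0.006 ± 0.31 and 0.20 ± 0.20 (edgeR adjusted p = 0.99 and 0.42). AFG3L2, which overlaps TUBB6 on the opposite strand, was at 66.9 ± 6.06 CPM in untreated and 44.7 ± 5.38 CPM in treated libraries.

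The alpha-tubulins were led by TUBA1B (ENSG00000123416, chromosome 12, 49127782 to 49131397), the ubiquitous isotype, at 956, 1874 and 748 CPM in untreated and 1560, 1476 and 1142 CPM in treated cells. All treated values lay above untreated replicates 1 and 3 and below untreated replicate 2. The log2 fold change was 0.22 ± 0.30 (edgeR adjusted p = 0.55), and without untreated replicate 2 it was 0.70 and was called higher (adjusted p = 0.011). TUBA1C, its neighbour on chromosome 12 (49188736 to 49274603, plus strand), measured 372, 649 and 310.1 CPM and then 441, 465 and 460.3 CPM. It showed the same order, with treated libraries between untreated replicate 2 and the rest, and went from a log2 fold change of 0.038 ± 0.24 (edgeR adjusted p = 0.91) to 0.40 without that library (adjusted p = 0.032).

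TUBA1A, an alpha isotype known for its role in developing neurons (chromosome 12, 49184796 to 49189324, minus strand), varied least among the untreated libraries. It measured 153, 155 and 146 CPM in untreated and 145, 132 and 128 CPM in treated libraries. All treated values lay just below all untreated values. The log2 fold change of −0.17 ± 0.13 was not called (edgeR adjusted p = 0.29), though it was called lower with library size alone (−0.97, adjusted p = 0.00016), with the 100 most abundant genes left out of the library size (−0.53, adjusted p = 0.0063) and with the length and GC trend removed (−0.61, adjusted p = 0.0025). The annotated spans of TUBA1A and TUBA1C overlap on opposite strands, and whether the counting used strand is not given in the sources used here. TUBA4A, a low-level alpha isotype on chromosome 2, gave 25.4, 45.0 and 25.6 CPM and then 27.3, 29.1 and 41.4 CPM (log2 fold change 0.027 ± 0.26, edgeR adjusted p = 0.94). STK16, which overlaps it on the opposite strand, was at 20.1 ± 1.69 and 43.8 ± 3.15 CPM.

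TUBG1 (chromosome 17, 42609676 to 42615234), the gamma-tubulin of the ring complex, measured 78.3, 111 and 69.95 CPM in untreated and 123, 99.5 and 63.2 CPM in treated libraries. The treated group held both the highest and the lowest value, and the log2 fold change was 0.14 ± 0.25 (edgeR adjusted p = 0.66). RETREG3, on the opposite strand across part of TUBG1, was at 57.9 ± 8.69 and 21.8 ± 7.06 CPM.

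Untreated replicate 2 carried more tubulin than the other untreated libraries. Summed over the 10 genes, tubulin came to 2846, 5161 and 2501 CPM in untreated and 3878, 3809 and 3638 CPM in treated cells. Against the mean of untreated replicates 1 and 3, replicate 2 was higher by 1.15 for TUBA1B, 1.16 for TUBB4B and 1.03 for TUBB on the log2 scale, and by 0.055 for TUBA1A, where the median over all genes tested was −0.009. The same library had the highest values of proliferation genes: MKI67 was 135, 382 and 177 CPM, TOP2A 78.8, 159 and 61.5 CPM and CCNB1 99.8, 186 and 71.4 CPM in untreated replicates 1, 2 and 3. In the 3 treated libraries MKI67 was 89.6, 67.8 and 57.6 CPM and TOP2A 58.6, 58.0 and 46.2 CPM, below all untreated libraries, while CCNB1 at 88.1, 84.6 and 82.2 CPM lay within their range. Untreated replicate 2 also had the lowest share of mitochondrially encoded counts, 2.95% against 5.97% and 6.003%. The part of proliferation or RNA make-up in its tubulin level, or in the difference between the groups, was not tested. Without this library 4 of 10 tubulin genes were called higher (TUBA1B, TUBA1C, TUBB2A and TUBB3) and 0 lower, with a median log2 fold change of 0.39. In that fit 25.8% of all genes were higher and 25.9% lower, with a median of −0.018.

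**Figure D2:**
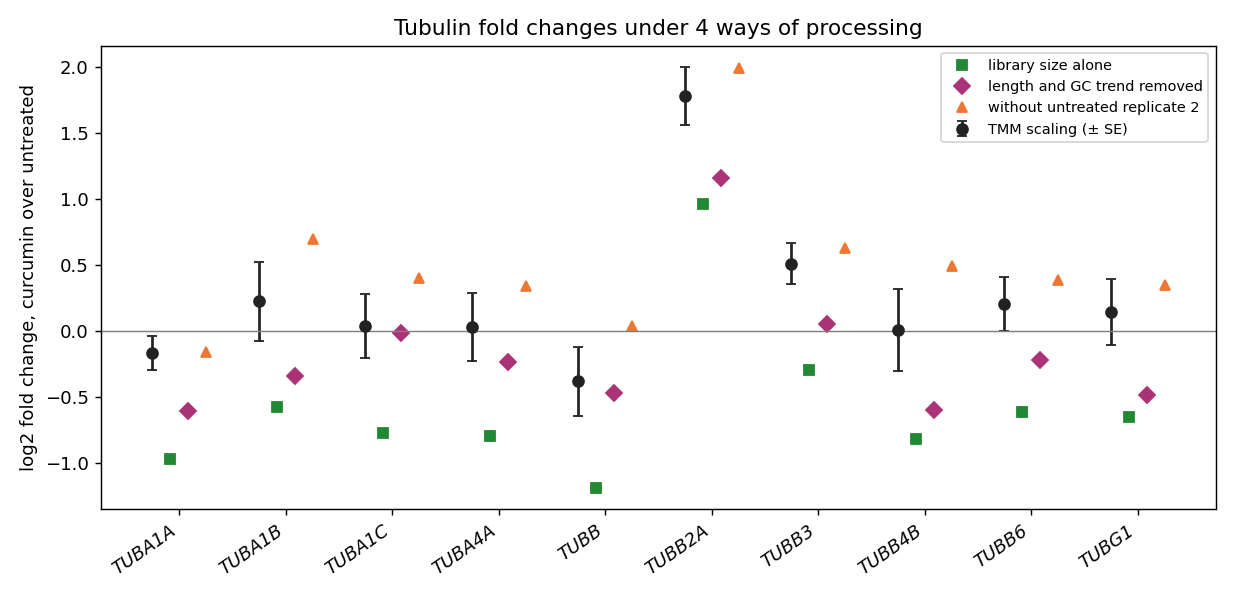
Log2 fold change, curcumin over untreated, of each tubulin gene with TMM scaling (black, ± SE), library size alone (green), the length and GC trend removed (purple) and without untreated replicate 2 (orange). TUBB2A stays at 0.96 or higher in all 4 and TUBA1A stays below 0, whereas TUBB3 runs from −0.30 to 0.63.

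Scaled by library size alone, all genes had a median log2 fold change of −0.84, a shift of −0.805 from TMM. There TUBB2A was the 1 tubulin gene called higher and 7 were called lower, against 9.62% and 56.5% of all genes, which is close to the background. With the 100 most abundant genes left out of the library size, 1 was higher and 2 lower, against 18.6% and 40.7%. These scalings move all genes together, so the fold changes turned sign for 7 and 6 tubulin genes while all 10 stayed on the same side of the median of all genes. Relative to the median of all genes, TUBA1A was at −0.131 with TMM and −0.128 with library size alone, TUBB at −0.345 and −0.348, TUBA1B at 0.261 and 0.264, TUBB6 at 0.240 and 0.227 and TUBG1 at 0.177 and 0.191. TUBA1C (0.075 and 0.069), TUBA4A (0.064 and 0.048) and TUBB4B (0.043 and 0.024) were level with the median in both, and TUBB3 (0.545 and 0.546) and TUBB2A (1.81 and 1.80) were above it. Removing the length and GC trend did move genes against the median, to −0.384 for TUBA1B, −0.643 for TUBB4B, −0.531 for TUBG1, 0.008 for TUBB3 and 1.11 for TUBB2A. In that setting 1 was higher and 1 lower, against 26.6% and 22.5% of all genes. Of the calls over all genes, 48.5% were higher with TMM, 31.3% without the 100 most abundant genes and 14.6% with library size alone. As a share of all counts, the 10 genes made up 0.465 ± 0.198% of untreated and 0.286 ± 0.0257% of treated libraries (SD, n = 3). The exact permutation test, two-sided, gave p = 0.1, and 3 against 3 libraries cannot give less.

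A share within a family is free of the scaling between libraries, so the isotype make-up was compared next. Shares are not free of each library's trend over transcript length and GC content, and were not computed with that trend removed. Removing it changed the log2 fold change of TUBB2A from 1.78 to 1.15 and that of TUBB from −0.38 to −0.47. TUBB2A took 3.70%, 2.94% and 3.66% of beta-tubulin member counts in untreated and 9.75%, 10.02% and 12.7% in treated libraries. TUBB took 45.6%, 50.6% and 48.2% and then 38.8%, 39.2% and 30.1%. For both genes the groups did not overlap, and the difference in means was 7.41 percentage points for TUBB2A and −12.05 for TUBB. The shares of a family sum to 100%, so these 2 differences are not independent results. The lower TUBB share does not by itself show less TUBB transcript, and the TUBB level was not called (edgeR adjusted p = 0.23). For every 100 counts of TUBB there were 5.81 to 8.11 of TUBB2A in untreated and 25.1 to 42.4 in treated cells.

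The other beta shares moved less than the spread or overlapped. TUBB3 went from 16.0 ± 3.38% to 20.7 ± 2.34%, TUBB4B from 25.6 ± 2.56% to 25.1 ± 4.62% and TUBB6 from 6.91 ± 1.03% to 7.28 ± 1.12% (SD, n = 3). Among alpha-tubulins, TUBA1B held 64.4 ± 4.08% and 68.8 ± 3.86%, TUBA1C 24.6 ± 0.709% and 22.8 ± 2.91%, TUBA1A 9.26 ± 3.19% and 6.72 ± 0.486% and TUBA4A 1.81 ± 0.241% and 1.66 ± 0.590%. Over the 9 shares, two-sided exact permutation p was 0.1 for TUBB and TUBB2A, the least this design allows, and 0.2 to 0.8 for the rest (adjusted 0.45 to 0.80). Summed alpha over summed beta counts was 1.13 ± 0.0933 in untreated and 1.22 ± 0.210 in treated cells (exact permutation p = 0.6).

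**Figure D3:**
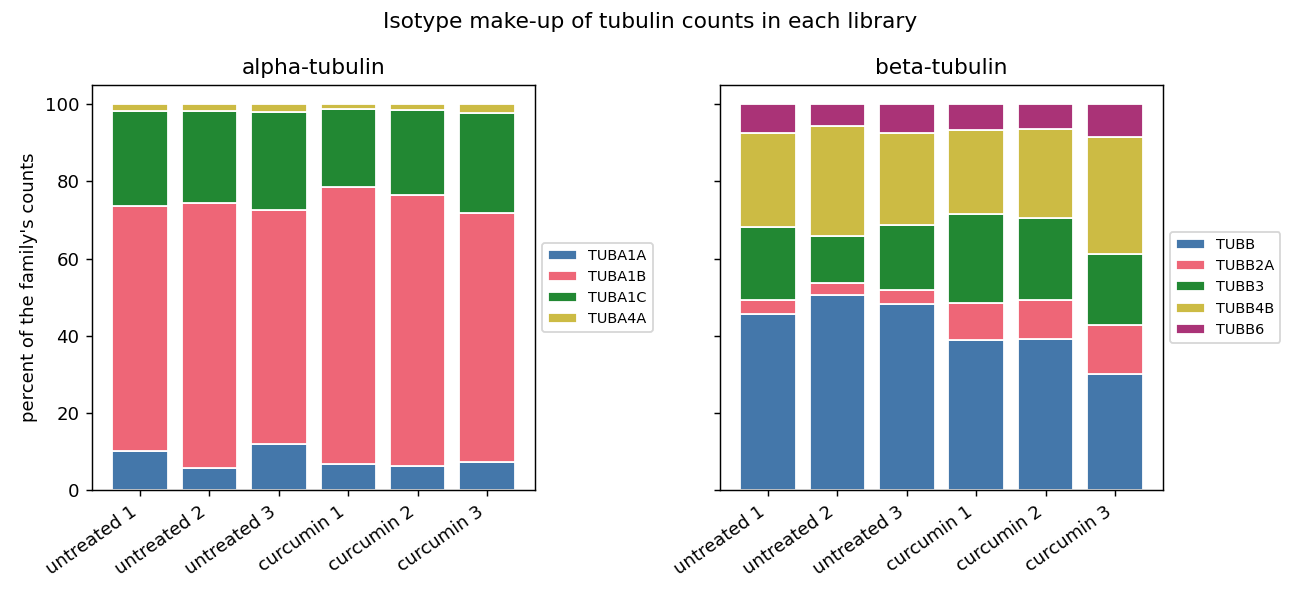
Share of each isotype, in percent of the counts of the alpha-tubulin (left) or beta-tubulin (right) members, in each of the 6 libraries. The TUBB2A segment widens from 2.94% to 3.70% in untreated to 9.75% to 12.7% in treated libraries while the TUBB segment narrows, and the alpha-tubulin make-up overlaps between groups.

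Levels were compared between genes as CPM per kilobase of the longest coding transcript, which may not be the isoform that these cells use. In untreated cells TUBA1B stood first at 733 ± 368 CPM per kilobase (SD, n = 3), followed by TUBB (268 ± 120) and TUBB4B (256 ± 129), which overlapped. TUBA1C (148 ± 60.0) and TUBB3 (122 ± 21.0) overlapped each other, TUBA1A (79.2 ± 2.57) came below them, and TUBG1 (53.6 ± 13.5) and TUBB6 (51.3 ± 11.4) were not distinguishable. TUBB2A (33.2 ± 8.40) and TUBA4A (12.8 ± 4.51) were last.

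After curcumin TUBA1B again led, at 856 ± 136 CPM per kilobase. TUBB2A moved from ninth to sixth place, at 114 ± 26.3 CPM per kilobase, between TUBA1C (152 ± 4.37) and TUBA1A (70.5 ± 4.73), and its libraries overlapped neither neighbour. TUBB4B (257 ± 67.3) and TUBB (205 ± 16.1) overlapped, and TUBB3 reached 174 ± 8.45, above TUBA1C in each library.

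Of the other tubulins of the table, TUBB4A had the highest level, above TUBB2A and TUBA4A in untreated cells. TUBB4A, an isotype of brain and some epithelia, measured 76.6, 89.0 and 72.7 CPM in untreated and 82.2, 78.1 and 54.9 CPM in treated cells (log2 fold change −0.15 ± 0.18, edgeR adjusted p = 0.51). TUBG2, the second gamma-tubulin gene, rose from 11.8 ± 1.74 to 20.7 ± 1.27 CPM (0.81 ± 0.19, edgeR adjusted p = 0.0045) but was not called with library size alone (0.013, adjusted p = 0.96), with the 100 most abundant genes left out, or with the length and GC trend removed (0.26, adjusted p = 0.25). TUBD1, the delta-tubulin of centrioles, fell from 8.73 ± 1.31 to 3.25 ± 0.501 CPM (log2 −1.43 ± 0.27, edgeR adjusted p = 0.0015) and kept its call in all 16 alternatives. The epsilon-tubulin TUBE1, also of centrioles, was 19.4 ± 6.62 and 26.0 ± 3.59 CPM (adjusted p = 0.19), and TUBA8 had 42 and 50 counts in all (adjusted p = 0.30). TUBA3C, TUBA3D, TUBA3E, TUBAL3, TUBB1 and TUBB8 were too low to be tested, with 49 counts or fewer summed over a group. A further 39 rows with tubulin names, nearly all pseudogenes, summed to 531 counts in untreated and 255 in treated libraries, and 24 of them were at 0 in all 6.

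The genes whose levels over the 6 libraries lay nearest to those of TUBA1B, by Euclidean distance of centred log2 CPM among 10614 coding genes, were MCM4 (0.15), DSCC1 (0.21) and NCAPG (0.25), where the median distance was 1.54. MCM4 is a subunit of the replicative helicase, DSCC1 belongs to a clamp loader used in sister chromatid cohesion, and NCAPG is a condensin subunit. For TUBB the nearest were LIPE (0.22), TIMM21 (0.26) and PRDM10 (0.29), a lipase, a mitochondrial import component and a zinc finger gene (median distance 1.40).

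The genes that fold, nucleate, modify and bind tubulin were then examined in 6 lists. Of 84 tested, 18 were higher (21.4%) and 31 lower (36.9%), with a median log2 fold change of −0.24, against 27.2% higher, 28.9% lower and −0.037 among all genes. With library size alone 9 were higher and 56 lower of 84, where 9.62% of all genes were higher and 56.5% lower. With the length and GC trend removed 24 were higher and 14 lower (median 0.13), where 26.6% of all genes were higher and 22.5% lower (median 0.042).

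The folding list holds cofactors that take up tubulin from the TRiC chaperonin and assemble the dimer, and besides them TBCEL, PDCL3 and PPP2CA. It had 5 of 9 higher and 2 lower (median 0.42), against 27.2% and 28.9% of all genes. PDCL3 and PPP2CA were the 2 without a call. TBCA, which holds beta-tubulin, rose from 42.2 ± 7.64 to 141 ± 7.38 CPM (log2 fold change 1.74 ± 0.17, edgeR adjusted p = 2.8e-05). TBCB, which holds alpha-tubulin, rose by 1.49 ± 0.14 and the small GTPase ARL2 by 1.61 ± 0.18, and all 3 were also called higher with library size alone. TBCC, which triggers GTP hydrolysis in the assembly complex, fell from 19.9 ± 1.52 to 7.34 ± 3.93 CPM (log2 −1.44 ± 0.33), and TBCEL fell (log2 −0.92 ± 0.21), the latter with no call once the length and GC trend was removed (adjusted p = 0.073). With library size alone 3 genes of the list were higher and 4 lower, against 9.62% and 56.5% of all genes.

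Of the 4 genes of the autoregulation pathway, 0 were higher and 1 lower with edgeR, against 27.2% and 28.9% of all genes. TTC5 itself was 18.7 ± 2.67 and 14.5 ± 4.76 CPM (adjusted p = 0.24), its adaptor SCAPER 5.20 ± 0.560 and 4.62 ± 0.944 CPM (adjusted p = 0.64) and the deadenylase subunit CNOT11 84.7 ± 6.18 and 75.5 ± 12.2 CPM (adjusted p = 0.40). CNOT1, the scaffold of the deadenylase, fell from 279 ± 36.7 to 202 ± 6.70 CPM (log2 −0.46 ± 0.14, edgeR adjusted p = 0.019). It was called higher instead with the length and GC trend removed (0.36, adjusted p = 0.037), and its call was lost without untreated replicate 3 or curcumin replicate 1 or 2 (adjusted p up to 0.078).

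Genes of the gamma-tubulin ring complex, augmin and their anchors were split, 5 of 20 higher and 5 lower (median 0.060). These counts are near the shares of all genes, 27.2% and 28.9%. MZT2B and MZT2A, small proteins bound to the ring complex, rose from 76.3 ± 2.33 to 324 ± 23.0 CPM and from 44.2 ± 4.20 to 166 ± 20.2 CPM (log2 fold changes 2.09 ± 0.13 and 1.91 ± 0.15, edgeR adjusted p = 1.1e-05 and 1.4e-05). These are near-identical copies, and their split is uncertain. HAUS4 of augmin rose by 1.83 ± 0.15. The ring subunit TUBGCP6 fell from 49.2 ± 3.27 to 18.9 ± 7.53 CPM, AKAP9, a Golgi and centrosome anchor, fell (log2 −1.49 ± 0.25), and HAUS3 fell (log2 −0.87 ± 0.23). AKAP9 and HAUS3 had no call with the length and GC trend removed (edgeR adjusted p = 0.10 and 0.18). That setting gave 7 higher and 1 lower in the list, where 26.6% and 22.5% of all genes were called. With library size alone the list had 3 higher and 13 lower, where the shares of all genes were 9.62% and 56.5%.

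Enzymes that modify tubulin had 4 of 16 higher and 5 lower (median −0.022), near the 27.2% and 28.9% of all genes. AGBL5, which trims glutamate side chains, rose from 33.9 ± 3.11 to 94.3 ± 5.93 CPM, and the tubulin deacetylase HDAC6 rose from 36.3 ± 3.39 to 85.6 ± 5.26 CPM, both in all 16 alternatives. SIRT2, another deacetylase, rose by 0.89 ± 0.22, a call lost with library size alone (adjusted p = 0.74) and with the length and GC trend removed (0.092). TTL, which restores the terminal tyrosine of alpha-tubulin, fell from 86.3 ± 5.38 to 43.7 ± 2.75 CPM (log2 −0.98 ± 0.14, edgeR adjusted p = 0.00025), a call lost with the length and GC trend removed (0.018, adjusted p = 0.93). The glutamylase TTLL4 fell from 31.9 ± 7.01 to 11.5 ± 1.59 CPM and VASH1, which removes that tyrosine, from 54.2 ± 6.90 to 26.1 ± 5.79 CPM. ATAT1, the alpha-tubulin acetyltransferase, was listed at 0 in all 6 libraries.

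Among lattice-binding and plus-end proteins 12 of 25 were lower and 1 higher (median −0.53), against 28.9% lower and 27.2% higher of all genes. MAP1S fell from 95.2 ± 1.71 to 33.8 ± 8.59 CPM (log2 −1.49 ± 0.19, edgeR adjusted p = 0.00013), the spindle pole protein NUMA1 fell from 201 ± 6.99 to 124 ± 6.18 CPM and MAP1A fell from 11.6 ± 3.18 to 3.57 ± 1.02 CPM, while MAPRE3, an end-binding protein, rose by 1.07 ± 0.20, a call lost with library size alone (adjusted p = 0.27). With the length and GC trend removed 3 were higher and 2 lower (median 0.078), against 26.6% and 22.5% of all genes. NUMA1 and MAP1A lost their calls there (edgeR adjusted p = 0.99 and 0.056). With library size alone 0 were higher and 21 lower, against 9.62% and 56.5% of all genes.

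Depolymerising and severing proteins had 3 of 10 higher and 6 lower (median −0.93), against 27.2% and 28.9% of all genes. The tubulin-sequestering stathmins STMN3 and STMN1 rose from 129 ± 9.86 to 319 ± 5.03 CPM and from 207 ± 46.6 to 419 ± 46.8 CPM, STMN1 with no call under library size alone (adjusted p = 0.34). The katanin subunit KATNA1 rose by 0.79 ± 0.24, a call lost with library size alone (−0.002, adjusted p = 0.99), with the length and GC trend removed, without untreated replicate 3 and without curcumin replicate 1. The depolymerising kinesin KIF2A fell from 31.4 ± 2.75 to 14.5 ± 1.49 CPM, the severing enzyme SPAST from 20.8 ± 1.96 to 10.3 ± 0.567 CPM and FIGNL1 from 20.5 ± 2.997 to 8.50 ± 1.30 CPM. All 3 kept their call in the 16 alternatives.

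**Figure D4:**
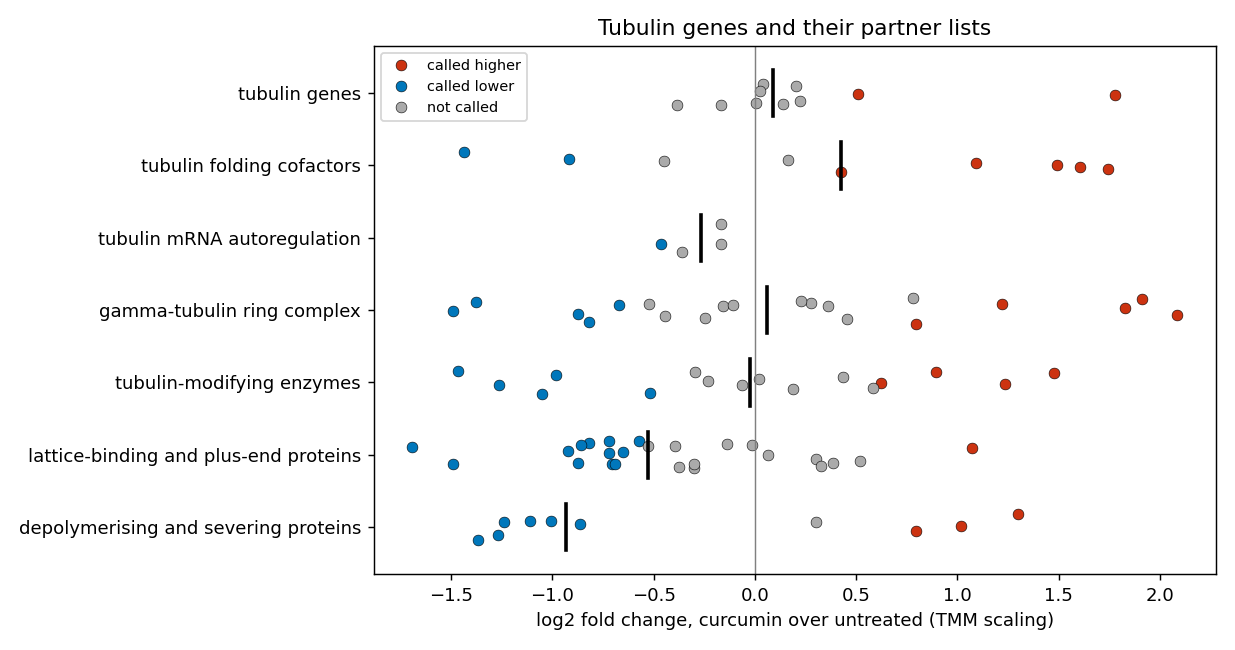
Log2 fold change (TMM scaling) of the 10 tubulin genes and of the tested genes in 6 partner lists, each point a gene, coloured by its edgeR call, with the list median as a black bar. The tubulin genes sit within −0.38 and 0.51 apart from TUBB2A at 1.78. The bars of the depolymerising (−0.93) and lattice-binding (−0.53) lists lie farthest below 0. Those of the autoregulation (−0.27) and tubulin-modifying (−0.022) lists are below 0 as well. With the length and GC trend removed, which is not drawn, the lattice-binding median was 0.078 and the depolymerising median −0.59.

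The upstream sequence of TUBB2A, which rose, is shown beside those of its copy TUBB2B and of TUBA1B, the most abundant tubulin. Each is the stretch of 250 bases before the RefSeq start (GRCh38.p14), 5′ to 3′ on the gene's strand, with matches to TATAAA and to CCAAT on either strand in capitals.
TUBB2A, chr6:3157545-3157794, minus strand: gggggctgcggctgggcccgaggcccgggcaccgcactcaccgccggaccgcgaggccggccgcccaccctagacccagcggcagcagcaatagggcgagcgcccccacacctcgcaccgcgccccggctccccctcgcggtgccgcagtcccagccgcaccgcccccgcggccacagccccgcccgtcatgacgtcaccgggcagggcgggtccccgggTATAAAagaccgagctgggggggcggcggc
TUBB2B, chr6:3227654-3227903, minus strand: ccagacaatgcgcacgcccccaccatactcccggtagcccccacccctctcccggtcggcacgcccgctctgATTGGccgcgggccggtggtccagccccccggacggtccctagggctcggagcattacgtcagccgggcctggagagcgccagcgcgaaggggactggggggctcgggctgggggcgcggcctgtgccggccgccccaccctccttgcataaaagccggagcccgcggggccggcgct
TUBA1B, chr12:49131396-49131645, minus strand: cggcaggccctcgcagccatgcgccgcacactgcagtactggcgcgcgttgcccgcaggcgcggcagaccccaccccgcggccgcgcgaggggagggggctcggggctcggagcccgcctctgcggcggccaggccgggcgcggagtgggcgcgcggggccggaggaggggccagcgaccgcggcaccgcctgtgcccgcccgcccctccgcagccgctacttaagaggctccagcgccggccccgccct
All 10 genes were found in the RefSeq promoter table, with 15 windows of 250 bases before to 50 after a start. TATAAA, searched on both strands, was present in 1 of the 10 genes, TUBB2A, where it began 30 bases before the start, and in 11.5% of 35116 promoters of that length. CCAAT was present in 7 of the 10 genes (9 of 15 windows) and in 34.6% of all promoters, and it was not among the letters of the TUBB2A or TUBA1B window. The heat shock element dyads GAANNTTC and TTCNNGAA, which overlap each other in longer elements, were present in 6.77% and 7.74% of promoters. Among the tubulin genes GAANNTTC was found in TUBA1C and TUBB, TTCNNGAA in 0 of 10, and neither in TUBB2A. A match describes the letters of a window and not a bound site.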

How the data were processed

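One gene table was deposited by the authors, holding estimated counts (expected counts), 18.9% to 30.1% of them not whole, unscaled between libraries; this unit was read from the values. RNA was taken with Trizol and libraries were made with a SMARTer mRNA-Seq kit, per the labels' protocols. No source used here gives the aligner, counter or annotation. The submitters' processing notes list GRCm38 and mm10, whereas all 35106 identifiers are human Ensembl genes, 35003 of them in GENCODE release 29 (GRCh38), which gave positions and lengths. Counts were rounded (shift at most 0.5), filtered with filterByExpr (minimum count 10, total 15), TMM-scaled and fitted by quasi-likelihood in edgeR 4.0.16, curcumin against untreated over all 6 libraries, with Benjamini-Hochberg adjustment over 13718 genes (R 4.3.3, limma 3.58.1, DESeq2 1.42.0). A floor of 3 counts was 0.114 to 0.238 CPM, covering counting error only. Replicates differed by more than counting noise (chi-square per degree of freedom 11.1 to 71.2 over pairs).

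The tubulin genes and lists were chosen with earlier results of these data known. Named genes were all tubulins, up to 3 higher and 3 lower members per list with the smallest adjusted p and no overlap between groups, and the 3 genes nearest to TUBA1B and TUBB (mean of at least 5 CPM, prior count 2). STK16, AC092143.1, AFG3L2, RETREG3, TTC5, SCAPER, CNOT11, ATAT1, PDCL3, PPP2CA and the proliferation and marker genes were named besides. Alternatives were RLE factors, library size with and without the 100 most abundant genes, a minimum mean of 50 counts, no filter, a minimum fold of 2, the replicate block, DESeq2, limma-voom, removal of each library's length and GC trend (loess span 0.3), summed copies, and leaving out each library. The fit was also run on simulated counts with known changes. There edgeR recovered 38 of 100 changes of 2-fold and 90 of 99 of 4-fold, and called 10 of 13365 unchanged genes. Few genes were changed in the simulation and the groups did not differ in make-up, unlike these data. It therefore does not show how the fit handles such a difference.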

Additional observations from a re-analysis of the deposited data

How the results depend on the processing

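With library size alone, 1320 genes were higher and 7747 lower among all genes (9.62% and 56.5%). The counts were 1 and 7 of the 10 tubulin genes and 9 and 56 of the 84 partner genes. With a fold of at least 2 these were 2244 and 2386 of all genes (16.4% and 17.4%), 1 tubulin gene higher, and 13 partner genes lower. With the 100 most abundant genes left out of the library size 1 tubulin gene was higher and 2 lower, against 18.6% and 40.7% of all genes. With the length and GC trend removed 1 tubulin gene was higher and 1 lower, against 26.6% and 22.5% of all genes. In that setting 14 of 84 partner genes were lower. Leaving out a library gave 1 to 4 higher tubulin genes of 10, where 3253 to 3843 of all 13973 to 14173 genes tested were higher. The 4 were without untreated replicate 2, where 25.8% of all genes were higher. TUBB3 was the gene lost when curcumin replicate 1 or 2, or untreated replicate 1 or 3, was left out. Other alternatives kept each of these counts within 1.5 times.

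Log2 fold changes with the other sign than in the TMM fit were, with library size alone, −0.58 for TUBA1B, −0.77 for TUBA1C, −0.79 for TUBA4A, −0.30 for TUBB3, −0.82 for TUBB4B, −0.61 for TUBB6 and −0.65 for TUBG1. Without the 100 most abundant genes they were −0.13 for TUBA1B, −0.32 for TUBA1C, −0.34 for TUBA4A, −0.36 for TUBB4B, −0.165 for TUBB6 and −0.21 for TUBG1. With the trend removed they were −0.34 for TUBA1B, −0.016 for TUBA1C, −0.235 for TUBA4A, −0.60 for TUBB4B, −0.22 for TUBB6 and −0.49 for TUBG1, and with no filter −0.043 for TUBA1C, −0.056 for TUBA4A and −0.077 for TUBB4B. Over the left-out libraries TUBA1B ran from −0.038 to 0.695, TUBA1C from −0.18 to 0.402, TUBA4A from −0.18 to 0.34, TUBB from −0.574 to 0.033, TUBB4B from −0.227 to 0.489 and TUBG1 from −0.089 to 0.365. The 2 library-size settings lower all genes together by their construction, and relative to the median of all genes no tubulin gene changed sign in them. For the rest the cause was not tested.

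TUBA1A, TUBA1B and TUBA1C summed to 1 feature gave 0.149 (edgeR adjusted p = 0.66). TUBB, TUBB2A, TUBB2B, TUBB4A and TUBB4B summed gave −0.06 (edgeR adjusted p = 0.86). Within that sum the group mean of TUBB2A went from 53.0 to 182 CPM and that of TUBB from 777 to 596 CPM. The lower TUBB mean was not seen without untreated replicate 2. TUBB2A summed with TUBB2B, a setting chosen after seeing the data, stayed called higher. With shares taken from counts per kilobase of transcript, the TUBB2A share gain was 9.27 percentage points in place of 7.41.

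Whether the replicate numbers pair the libraries was left undecided, because the same-number correlations of deviations were weak (0.040, 0.023 and 0.111). Every library except untreated replicate 2 correlated best with the library of its own number. Untreated replicate 2 correlated at 0.0394 with curcumin replicate 1 and at 0.0229 with curcumin replicate 2. With the replicate block 3683 genes were higher and 4011 lower of 13718 tested. The counts were 2 and 0 of the 10 tubulin genes and 20 and 31 of the 84 partner genes. Only TUBB2A of the tubulin genes was called in the same direction in each alternative run on single genes. The 8 tubulin genes without a call were not shown to be unchanged.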
